A study of Homo sapiens with 6 samples.

Results

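The LaminB1 regions described here are all those that lie on chromosomes 16 and 17 in the 4 region lists of a LaminB1 CUT&RUN experiment on HCT116, a human colorectal carcinoma cell line. They were taken by chromosome name alone. They numbered 367 and 378 in the DKO lists, against 352 and 483 in the WT lists. Together these are 1580 of the 49028 regions of the 4 lists, 1155 of them on chromosome 16 and 425 on chromosome 17.

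LaminB1 is a B-type lamin of the meshwork under the inner nuclear membrane. Chromatin that touches this meshwork forms lamina-associated domains, which are usually long, poor in genes and weakly transcribed. In CUT&RUN an antibody guides a nuclease that cuts out the bound chromatin, and reads from a LaminB1 antibody come from DNA close to the lamina. Chromosomes 16 and 17 are rich in genes, and in most human nuclei such chromosomes sit away from the lamina. TOP2A and TOP2B are the type II topoisomerases of human cells, which pass DNA strands through a double-strand break and so relax supercoils and untangle DNA. By its title, the study asks how they shape chromatin folding where positive supercoils build up.

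In the DKO cells both TOP2A alleles carried the mini auxin-inducible degron (mAID), TOP2B was knocked out by CRISPR/Cas9, and 500 uM auxin was given for 8 h. By the series text such auxin treatment removes up to 95% of TOP2A. The WT cells are labelled wildtype, while the names of their lists give a TOP2A-AID line without auxin. Both groups were held in G1 with 2 uM palbociclib, a CDK4/6 inhibitor, for 28 h. There were 2 libraries with the LaminB1 antibody and 1 with IgG in each of the groups. Nothing states that the replicates were separate cultures or that more than 1 knockout clone was used, so the spread between libraries may be technical. TOP2B genotype, auxin and the control library each differ between DKO and WT and cannot be told apart.

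The sequences that the regions on these chromosomes cover can be seen at the promoters of genes inside them. The 6 below are RefSeq promoters of GRCh38.p14, each from 250 bases before to 50 bases after the start that the table uses, which for ABCA9 lies inside the annotated gene and for the others is the gene's first base. They are written 5′ to 3′ on the gene's strand, with CG dinucleotides in capitals. The first 5 belong to a run of genes on distal 17q. The longest stretch called in the DKO lists alone lies further along the same arm. The last of the 6 is the only one of 1435 promoters looked at on these chromosomes inside regions of both WT lists and neither DKO list. Over all chromosomes this was so for 79 of 15812 promoters. Inside regions of both DKO lists and neither WT list were 5 of the 1435, against 94 of the 15812. ABCA9 (chr17:69060878-69061177, minus strand), ABCA6 (chr17:69141846-69142145, minus), KCNJ16 (chr17:70074975-70075274, plus) and KCNJ2 (chr17:70169282-70169581, plus) lay inside regions of all 4 lists. ABCA5 (chr17:69327084-69327383, minus) lay inside regions of both DKO lists and neither WT list, and VAT1L is at chr16:77788314-77788613 on the plus strand.
ABCA9: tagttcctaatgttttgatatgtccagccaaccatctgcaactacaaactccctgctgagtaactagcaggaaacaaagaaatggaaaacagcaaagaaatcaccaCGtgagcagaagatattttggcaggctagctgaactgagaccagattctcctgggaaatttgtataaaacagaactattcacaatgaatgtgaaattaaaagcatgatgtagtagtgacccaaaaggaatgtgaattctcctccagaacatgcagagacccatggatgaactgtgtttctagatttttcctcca
ABCA6: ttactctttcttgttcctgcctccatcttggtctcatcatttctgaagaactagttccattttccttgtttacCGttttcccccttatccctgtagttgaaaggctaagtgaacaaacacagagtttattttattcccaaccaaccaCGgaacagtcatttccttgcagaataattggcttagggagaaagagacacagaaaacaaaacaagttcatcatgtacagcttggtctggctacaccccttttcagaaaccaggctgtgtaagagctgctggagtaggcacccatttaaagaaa
ABCA5: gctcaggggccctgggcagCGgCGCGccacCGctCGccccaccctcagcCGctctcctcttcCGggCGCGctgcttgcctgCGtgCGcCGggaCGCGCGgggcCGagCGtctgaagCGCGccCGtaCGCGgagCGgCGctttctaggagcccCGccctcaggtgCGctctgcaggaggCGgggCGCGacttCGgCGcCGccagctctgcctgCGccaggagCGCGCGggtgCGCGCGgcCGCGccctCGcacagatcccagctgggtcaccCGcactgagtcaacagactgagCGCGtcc
KCNJ16: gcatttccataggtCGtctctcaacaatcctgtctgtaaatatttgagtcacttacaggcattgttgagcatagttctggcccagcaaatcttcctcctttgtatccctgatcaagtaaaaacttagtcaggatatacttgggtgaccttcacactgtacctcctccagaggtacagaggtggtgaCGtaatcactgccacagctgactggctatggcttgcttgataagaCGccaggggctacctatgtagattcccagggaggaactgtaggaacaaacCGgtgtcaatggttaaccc
KCNJ2: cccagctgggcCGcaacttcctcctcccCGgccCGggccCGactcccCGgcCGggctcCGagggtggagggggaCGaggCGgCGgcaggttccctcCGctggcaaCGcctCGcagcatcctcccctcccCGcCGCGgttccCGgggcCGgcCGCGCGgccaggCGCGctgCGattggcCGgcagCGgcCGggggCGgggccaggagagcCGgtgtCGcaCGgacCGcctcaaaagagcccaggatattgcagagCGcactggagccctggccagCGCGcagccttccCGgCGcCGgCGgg
VAT1L: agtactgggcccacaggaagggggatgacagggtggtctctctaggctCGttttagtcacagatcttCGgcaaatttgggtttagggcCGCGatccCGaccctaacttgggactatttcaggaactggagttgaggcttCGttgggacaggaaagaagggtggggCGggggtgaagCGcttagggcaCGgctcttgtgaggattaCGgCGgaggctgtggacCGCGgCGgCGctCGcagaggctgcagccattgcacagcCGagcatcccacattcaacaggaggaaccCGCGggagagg

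The promoters inside regions differ widely in CG content. ABCA9, ABCA6 and KCNJ16 hold 1, 2 and 4 CG dinucleotides in 300 bases, while KCNJ2 holds 39, and all 4 were covered in every list. ABCA5, whose promoter was covered in the DKO lists alone, holds 45. VAT1L holds 19. Of 2023 protein-coding genes on the 2 chromosomes, 1435 had a promoter in the table. The 11 whose window lay wholly inside regions of all 4 lists had a median of 15 CG dinucleotides, against 25 in the 1398 outside all regions. Over all chromosomes the medians were 4 for 388 promoters and 23 for 14364. The motif TATAAA, searched on both strands, occurs in the ABCA9 promoter. It occurs in 9.34% of all 300-base promoters on these chromosomes and in 2 of the 11.

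Regions of the 2 chromosomes held 316773 and 327131 LaminB1 reads in DKO 1 and DKO 2, against 281899 and 274969 in WT 1 and WT 2. They also held 238737 and 243563 reads of the DKO control library, against 175336 and 162092 of the WT control library. A region held a median of 315 and 336.5 LaminB1 reads in the DKO lists, against 321.5 and 228 in the WT lists. Total library depths are not in the lists, so depth is known only inside regions. The WT 2 list had more and shorter regions than the others over the whole genome, with a median width of 22 kb against 29 to 30 kb in the other lists. The 2 chromosomes held 2.96% to 3.55% of the regions and 3.57% to 3.67% of the covered sequence of a list.

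Coverage was uneven along both chromosomes and lay mostly on the long arms. Chromosome 16 had 13.9% and 14.6% of its length inside regions in the DKO lists, against 15.0% and 13.5% in the WT lists. Chromosome 17 had 11.6% and 11.7% in the DKO lists, against 9.67% and 8.91% in the WT lists. By mean share they ranked 14 and 17 among 23 chromosomes in DKO and held the same ranks in WT. Arms were split at the middle of the longest stretch without a protein-coding gene. The long arm 16q had the highest share, 18.4% and 19.9% in the DKO lists, against 19.2% and 18.0% in the WT lists. The short arm 16p had 8.28% and 8.04% in the DKO lists, against 9.77% and 7.92% in the WT lists. The DKO and WT libraries overlapped on both arms of chromosome 16. On 17q the share was 14.2% and 13.8% in the DKO lists, against 12.1% and 11.6% in the WT lists. On 17p it was 5.20% and 6.56% in the DKO lists, against 3.84% and 2.45% in the WT lists.

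**Figure D1:**
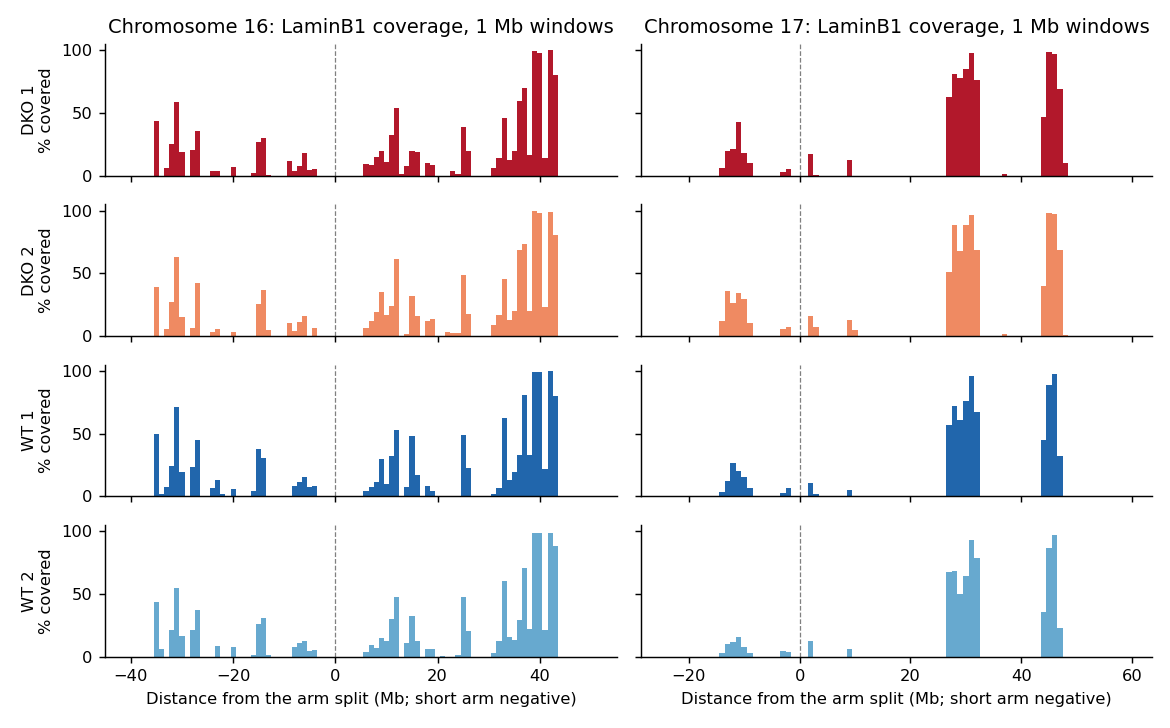
Percent of each 1 Mb window inside LaminB1 regions (y axis) against distance from the arm split in Mb (x axis) on chromosome 16 (left) and 17 (right), with 1 row for each library, DKO 1, DKO 2, WT 1 and WT 2 from the top. All 4 libraries show a dense stretch near the end of 16q and 2 isolated blocks on 17q, and empty windows at both ends of each chromosome.

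On 16q the segment from 78 to 84 Mb, with 21 protein-coding genes, held the longest runs of coverage. The segments named here were drawn after their values were seen and are described without a test. From 78 to 84 Mb, 67.97% and 70% of the sequence was covered in the DKO lists, against 72% and 71.2% in the WT lists. From 84 Mb to the end, where gene density is 13.3 per Mb against 3.50 per Mb in the segment before it, the share was 0 in all 4 lists. In all 4 lists the last region of 16q ended between 83 and 84 Mb. The longest stretch called in all 4 lists of either chromosome was chr16:82172001-83637000, 1465 kb over most of CDH13, the gene of T-cadherin, an adhesion protein held in the membrane by a lipid anchor. The next on 16q was chr16:78898001-79554000, 656 kb over the 3′ part of WWOX, a very long gene at a common fragile site, and over MAF, the gene of a leucine zipper transcription factor.

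One gene desert of 16q was almost uncovered. The 2.91 Mb between CDH8 and CDH11, genes of type II cadherins, contain no protein-coding gene. Of this stretch 2.00% and 2.68% was covered in the DKO lists, against 0 and 0.482% in the WT lists.

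On 17q nearly all covered sequence lay in a pair of blocks. From 51 to 57 Mb the share was 80.3% and 77.0% in the DKO lists, against 71.5% and 70.3% in the WT lists. From 68 to 72 Mb it was 77.9% and 76.0% in the DKO lists, against 66.1% and 60.5% in the WT lists. Between the blocks, from 57 to 68 Mb, 0.136% and 0.173% was covered in the DKO lists and none in the WT lists. The blocks hold 3.50 and 3.75 protein-coding genes per Mb, while the 26.5 Mb from the split to 51 Mb hold 18.2 per Mb and were 0.672% to 1.57% covered. The longest stretches of 17q called in all 4 lists were chr17:51487001-51973000, 486 kb over part of CA10 and sequence beside it, and chr17:56193001-56593000, 400 kb over part of ANKFN1 and sequence beside it. CA10 encodes a carbonic anhydrase-related protein without enzyme activity.

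The short arms had no block of this size. Their longest stretches called in all 4 lists were 53 kb at chr16:9695001-9748000 and 47 kb at chr16:33715001-33762000 on 16p, and 35 kb at chr17:22123001-22158000 and 9 kb at chr17:13963001-13972000 on 17p. The 53 kb stretch lies beside GRIN2A, the gene of an NMDA receptor subunit. Of the sequence in any list, 13.9% on 16p and 2.99% on 17p was in all 4, against 43.1% on 16q, 60.5% on 17q and 37.5% on the other chromosomes. In 5 Mb windows, 4 of 19 on chromosome 16 and 7 of 17 on chromosome 17 had no region in any list. The last window of each chromosome, which is among these, is shorter than 5 Mb. So is the window from 40 to 45 Mb of chromosome 16 among them, which holds no protein-coding gene. On each chromosome 4 windows were at least 20% covered in all lists.

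Regions on 17q had a higher median width and a lower log2 fold over the control library than the pooled regions of the chromosomes other than 16 and 17 in each of the 4 libraries. Their median width was 71 and 83 kb in the DKO lists, against 54 and 33 kb in the WT lists. On those chromosomes it was 29 kb in both DKO lists, against 30 and 22 kb in the WT lists. Regions of at least 100 kb held 82.3% and 79.3% of the covered sequence of 17q in the DKO lists, against 81.3% and 64.5% in the WT lists. The same share on 16q was 49.0% and 47.3% in the DKO lists, against 52.9% and 45.7% in the WT lists, and on 17p it was 0 in all lists. The median deposited log2 fold of 17q regions, LaminB1 over the control library, was 0.20 and 0.25 in the DKO lists, against 0.25 and 0.29 in the WT lists. On the other chromosomes it was 0.52 and 0.51 in the DKO lists, against 0.55 and 0.61 in the WT lists. In the WT lists neither trait is particular to 17q. Chromosome 20 had median widths of 26 and 28.5 kb in the DKO lists, against 91 and 46 kb in the WT lists. Its log2 folds were 0.39 and 0.39 in DKO, against 0.23 and 0.26 in WT. A low log2 fold is not particular to 17q in DKO either. Chromosome 22, with 7 to 23 regions a list, had 0.23 and 0.25 in DKO, against 0.18 and 0.19 in WT. Both 17q differences from the other chromosomes had the same sign in all 4 libraries. An exact sign-flip test over the 4 libraries gave p = 0.125, the smallest it can give. Benjamini-Hochberg adjustment over 20 such comparisons of arms gave 0.147, so 4 libraries cannot pass the threshold. Lists of the same group share a control library, so the 4 libraries are not independent units in this test.

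**Figure D2:**
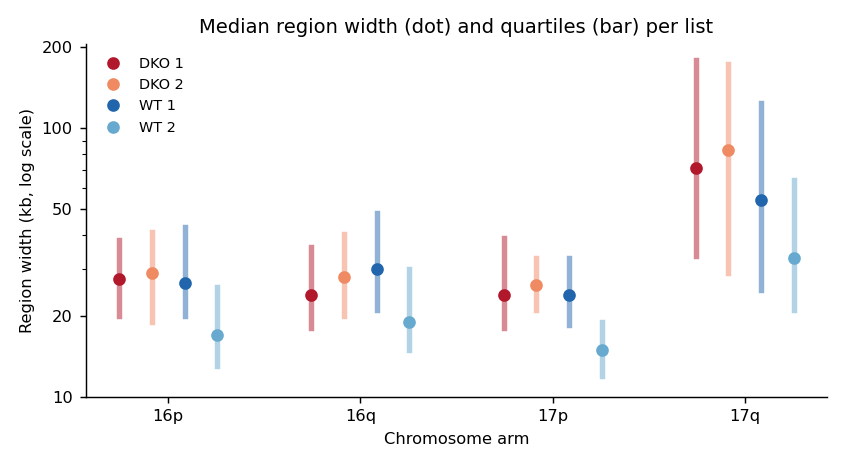
Region width in kb on a log scale (y axis) by chromosome arm (x axis), where the dot is the median and the bar runs between the quartiles of 1 list, DKO 1, DKO 2, WT 1 and WT 2 from left to right. Regions of 17q have medians of 33 to 83 kb, against 15 to 30 kb on the other arms, and the WT 2 list has the lowest median on every arm.

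Read density rose in a step along 16q and was above the median window on 17q, in the control library as well as in the LaminB1 libraries. The lists give counts per region, so reads were spread evenly over each region. Density can therefore change only at region edges, and windows inside the same region share its value. Densities of arms, regions and 5 Mb windows are given as reads per covered kb over the median 5 Mb window of the same list, among 418 windows. That median was 12.5 LaminB1 reads per kb in both DKO lists, against 11.6 and 12.3 in the WT lists, and 8.36 and 8.35 control reads per kb in the DKO lists, against 6.46 and 6.47 in the WT lists. Relative control density was 1.44 and 1.43 on 17q in the DKO lists, against 1.43 and 1.43 in the WT lists. On 16q it was 1.27 and 1.25 in the DKO lists, against 1.24 and 1.25 in the WT lists. The short arms had 1.04 to 1.09 as a whole, while the windows of 1 Mb from 33 and 34 Mb on 16p had 1.18 to 1.59. Raised control density is not particular to chromosomes 16 and 17, which had 1.19 to 1.22 and 1.36 to 1.40 as a whole. Chromosomes 8, 10, 21 and 22 had 1.34 to 1.36, 1.26 to 1.27, 1.55 to 1.69 and 2.11 to 2.31. Chromosomes 19 and 20 had 1.22 to 1.60 and 1.15 to 1.48, and the other chromosomes had 0.903 to 1.06. Relative LaminB1 density was lower than that of the control on 17q, with 1.20 and 1.20 in the DKO lists, against 1.21 and 1.20 in the WT lists. The same held on every other arm in every list, with LaminB1 values of 1.16 to 1.19 on 16q. HCT116 is known to carry extra copies of parts of the long arms of chromosomes 16 and 17. Copy number was not measured here, and its part in these densities was not tested.

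The step on 16q came with a long region that begins inside WWOX and runs past its end. Reads were spread evenly over that region, so the place of the step was not resolved further. In sequence called in all 4 lists, the 1 Mb window from 77 Mb had a relative control density of 1.00 and 1.00 in the DKO lists, against 1.00 and 1.00 in the WT lists. The window from 78 Mb had 1.59 and 1.59 in the DKO lists, against 1.56 and 1.62 in the WT lists, and the windows from 79 to 83 Mb had 1.45 to 1.63. The change came with the long region over the end of WWOX. It began at 78892001 and 78894001 in the DKO lists, against 78890001 and 78898001 in the WT lists, and had a relative control density of 1.71 and 1.71 in the DKO lists, against 1.68 and 1.75 in the WT lists. The nearest called regions before it had 1.06 and 1.00 in the DKO lists, against 0.856 and 1.04 in the WT lists. They ended at 78196000 and 78797000 in the DKO lists, against 78885000 and 78476000 in the WT lists. On 17q relative control density was 1.21 to 1.56 over 11 windows of 1 Mb, all but 1 of them in the 2 blocks.

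**Figure D3:**
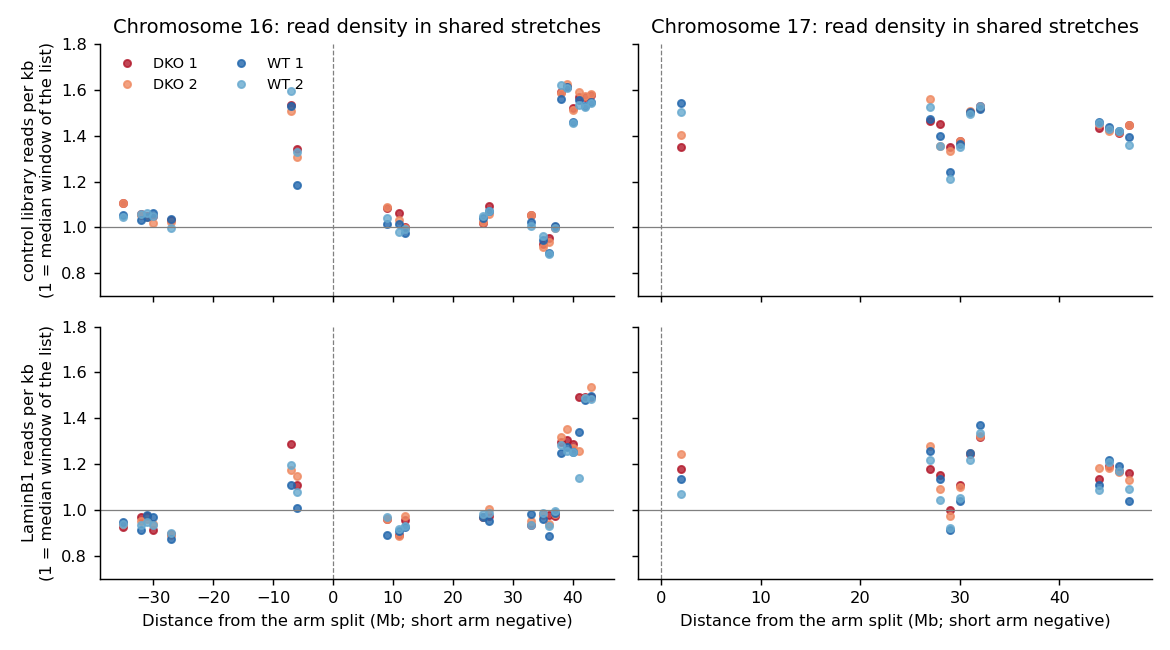
Reads per kb over the median 1 Mb window of the list (y axis, which starts at 0.7) against distance from the arm split in Mb (x axis) for 1 Mb windows with sequence called in all 4 lists, with the control library above and LaminB1 below, and 1 dot for each library. Control density on 16q is 0.883 to 1.09 up to 37 Mb from the split and 1.45 to 1.63 beyond it, and on 17q it is 1.21 to 1.56.

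DKO and WT were compared first over whole chromosomes and arms. Chromosome 17 had a covered share of 11.6 ± 0.07% in DKO and 9.29 ± 0.54% in WT (SD, n = 2 each), a difference of 2.32 points, and both DKO libraries were above both WT libraries. This was so for 65.2% of the 23 chromosomes, and both DKO libraries were below both WT libraries for 8.70%. Chromosome 16 had 14.2 ± 0.50% in DKO and 14.2 ± 1.05% in WT (SD, n = 2 each), and its libraries overlapped. On 17p the share was 5.88 ± 0.96% in DKO and 3.14 ± 0.98% in WT, and on 17q it was 14.0 ± 0.30% in DKO and 11.9 ± 0.35% in WT (SD, n = 2 each). Neither arm of chromosome 17 overlapped between the groups. The exact permutation test, two-sided, gave p = 0.33 for chromosome 17 and for each of its arms, the smallest p that 2 libraries against 2 allow, and 1 for chromosome 16. Over the upper 50% of each list's regions by log2 fold, the differences turned to -0.025 points on chromosome 17 and -0.20 points on 17q. That setting left 9 and 14 regions of chromosome 17 in the DKO lists, against 5 and 11 in the WT lists.

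In 5 Mb windows coverage was higher in DKO in 3 windows, all on chromosome 17. Of 24 windows tested, limma gave an adjusted p under 0.05 for 3 higher and 0 lower in DKO. Over the whole genome it called 33.3% of windows higher and 11.6% lower, so 3 of 24 is below the genome's share. The window from 10 to 15 Mb on 17p had 21.7% and 27.5% covered in DKO, against 15.6% and 9.62% in WT (limma adjusted p = 0.00690). The window from 50 to 55 Mb, with CA10, had 61.4% and 59.3% in DKO, against 53.1% and 50.02% in WT (limma adjusted p = 0.0120). The window from 70 to 75 Mb had 35.2% and 33.3% in DKO, against 26.0% and 23.98% in WT (limma adjusted p = 0.00571). The groups did not overlap in any of the 3. On chromosome 17, 7 of 9 tested windows had both DKO libraries above both WT libraries and 0 had both below, against 51.1% and 21.7% of windows over the genome. On chromosome 16, 3 of 15 tested windows were above and 4 below, none passed limma in either direction, and 1 had an unadjusted p under 0.05. Without DKO 1, and likewise without DKO 2, limma called 0 windows on the 2 chromosomes, and without WT 2 it called 1. Under a stricter deposited adjusted p of 0.01 the window from 50 to 55 Mb differed by 5.39 points and lost its call.

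**Figure D4:**
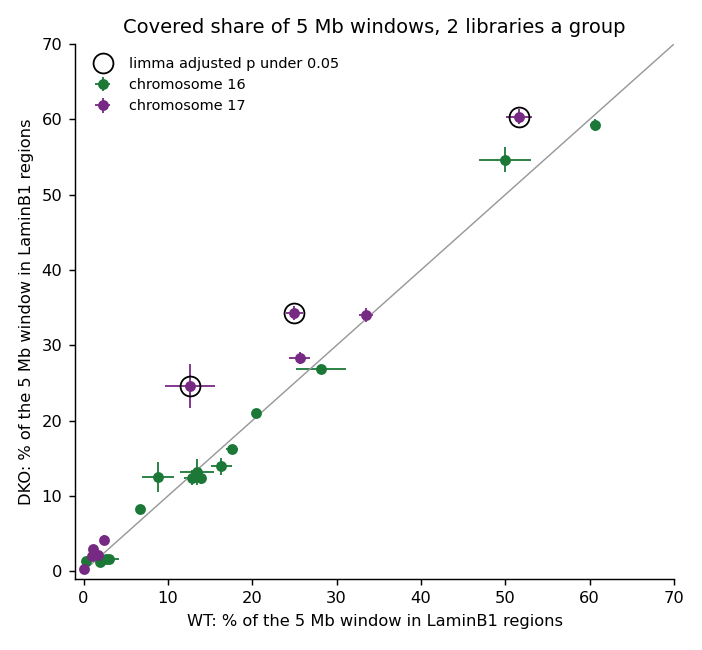
Covered percent of each 5 Mb window in DKO (y axis) against WT (x axis) for windows with any region, where the dot is the mean of 2 libraries, the bars run to each library's value, and the line marks equal shares. The 3 windows with a limma adjusted p under 0.05 (rings) belong to chromosome 17 and lie above the line, while windows of chromosome 16 fall on both sides.

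Sequence called in both lists of one group and neither of the other was compared next. As a share of the sequence in either list, the 2 DKO lists had 0.731 of chromosome 17 in common and the 2 WT lists 0.680, while DKO and WT lists had 0.623 to 0.659 in common. On chromosome 16 the DKO lists had 0.589 in common, the WT lists 0.555, and DKO and WT lists 0.524 to 0.576. On the other chromosomes the DKO lists had 0.626, the WT lists 0.643, and DKO and WT lists 0.565 to 0.582. On chromosome 17, 1.12 Mb was called in both DKO lists alone and 0.091 Mb in both WT lists alone. The 4 mixed pairs of 1 DKO and 1 WT list had 0.140 to 0.265 Mb there. On chromosome 16 the sums were 0.969 Mb for DKO and 0.788 Mb for WT, and the mixed pairs had 0.462 to 0.815 Mb. Of the sequence in any list, DKO alone had 9.33% on chromosome 17 and 4.84% on chromosome 16, against 6.41% on the other chromosomes. WT alone had 0.759% on chromosome 17 and 3.94% on chromosome 16, against 4.49% on the other chromosomes. The longest DKO stretch was chr17:71701001-71883000, 182 kb in the gene desert between KCNJ2, the gene of an inward-rectifier potassium channel, and SOX9, the gene of a transcription factor of cartilage and testis development. The next on 17q was chr17:69277001-69330000, 53 kb over part of ABCA5. On 17p the longest was 35 kb at chr17:14479001-14514000, on 16q 29 kb at chr16:71236001-71265000, and on 16p 25 kb at chr16:5736001-5761000 in RBFOX1. The longest WT stretch was 37 kb at chr16:32368001-32405000, followed by 36 kb at chr16:12276001-12312000 in SNX29. On 16q the longest WT stretches were 21 kb at chr16:77786001-77807000 over the start of VAT1L and 20 kb at chr16:55326001-55346000 over part of IRX6. On chromosome 17 they were 19 kb at chr17:10806001-10825000, which touches one end of PIRT, and 15 kb at chr17:26767001-26782000.

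In 100 kb bins 5 were called higher and 0 lower in DKO by limma, of 457 tested. Over the genome 0.642% were called higher and 0.296% lower. The 2 adjacent bins in the KCNJ2 to SOX9 desert, chr17:71700001-71900000, were 99% and 83% covered in DKO 1 and 100% and 86% in DKO 2, against 0 in both WT lists. The bin chr17:52400001-52500000 was 100% covered in both DKO lists, against 80% in both WT lists, and chr17:52200001-52300000 was 100% covered in both DKO lists, against 95% and 96% in the WT lists. The bin chr16:31600001-31700000 was 62% and 59% covered in DKO, against 0 in both WT lists. The limma adjusted p of the 5 lay between 0.0443 and 0.0486. At an unadjusted p under 0.05 there were 50 bins higher and 15 lower, which are 10.9% and 3.28%, against 12.1% and 6.42% over the genome. Both DKO libraries were above both WT libraries in 90 bins and below in 59. These are 19.7% and 12.9%, against 24.5% and 15.6% of bins over the genome. Without DKO 1, DKO 2, WT 1 or WT 2, limma called 39, 35, 16 and 9 bins higher and 8, 8, 0 and 0 lower. On untransformed shares it called none. With regions up to 10 kb apart merged, the differences at chr17:52400001-52500000 and chr17:52200001-52300000 were 8 and 0 points and neither was called, while the other 3 bins were.

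LaminB1 read density inside regions, relative to each library's median window, was called different in 2 of 21 windows, both next to a centromere. In the window from 35 to 40 Mb of chromosome 16 relative LaminB1 density was 1.06 and 1.21 in DKO, against 1.00 and 0.99 in WT, a log2 difference of 0.19 (SE 0.05, limma adjusted p = 0.0290). In the window from 20 to 25 Mb of chromosome 17 it was 1.34 and 1.24 in DKO, against 1.08 and 1.15 in WT, a log2 difference of 0.22 (SE 0.04, limma adjusted p = 0.00696). Over the genome 12.4% of windows were called higher and 12.2% lower. Relative control density moved with it, at 1.23 and 1.33 in DKO against 1.08 and 1.07 in WT in the first window, and 1.60 and 1.503 in DKO against 1.39 and 1.45 in WT in the second. The part of the control libraries in these calls was not tested. At most 3.24% of the first window and 2.56% of the second was covered in any list, and without WT 1 and WT 2 in turn limma called 0 and 1 windows higher.

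Few genes of the 2 chromosomes lay in regions. Of 2023 protein-coding genes, 101 had any covered sequence in at least 1 list, 4.99% against 15.3% of all genes. In all 4 lists 26 were at least 50% covered, 1.29% against 4.28% of all genes, and 8 were fully covered. The 26 had a median length of 92.5 kb, against 15.7 kb for genes with no covered sequence. Over the genome the same lengths were 93.5 kb and 21.3 kb, so this contrast is not particular to these chromosomes. On 17q, 16 genes were among the 26, on 16q 9, on 16p 1 (GRIN2A) and on 17p 0. Fully or almost fully covered in every library were CDH13 with 99.4% to 99.5%, MAF with 98.1% to 100%, CDYL2, a chromodomain protein gene, with 100%, and CA10 with 97.7% to 100%. ANKFN1 had 96.2% to 97.7%. STXBP4, the gene of a syntaxin-binding protein, had 100% and 93.8% in the DKO lists, against 98.4% and 85.6% in the WT lists.

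No gene on either chromosome passed limma in either direction. At an unadjusted p under 0.05 there were 7 genes higher and 4 lower in DKO, which are 6.93% and 3.96% of the 101, against 9.58% and 5.98% over the genome. The adjusted calls over the genome were 1.67% higher and 0.981% lower. Without DKO 1, DKO 2, WT 1 or WT 2, limma called 13, 8, 7 and 6 genes higher and 1, 1, 9 and 11 lower. Both DKO libraries were above both WT libraries in 16 of the 101 genes and below in 12, which are 15.8% and 11.9%, against 21.5% and 13.9% over the genome. Per chromosome this was 10 above and 1 below on chromosome 17, and 6 above and 11 below on chromosome 16. The widest gap on chromosome 17 was at ABCA5, the gene of a lipid transporter of the ATP-binding cassette family. It was 100% and 85.5% covered in the DKO lists and 0 in both WT lists (limma adjusted p = 0.108). SHISA6, the gene of an AMPA receptor auxiliary protein, had 32.5% and 23.2% in DKO, against 0 and 0.949% in WT (limma adjusted p = 0.124). ASIC2, the gene of an acid-sensing ion channel, had 10.8% and 11.2% in DKO, against 4.55% and 5.68% in WT. BCAS3 had 2.10% and 2.66% in DKO and 0 in both WT lists.

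On chromosome 16 the gaps between the groups ran both ways. CNTNAP4, the gene of a neurexin-like adhesion protein of neurons, had 59.4% and 55.7% covered in DKO, against 22.1% and 27.4% in WT (limma adjusted p = 0.181). GPR139, an orphan receptor gene, had 43.8% and 65.5% in DKO, against 32.6% and 0 in WT. PMFBP1, a gene needed for the sperm head-to-tail junction, had 60.7% and 78.7% in DKO, against 16.5% and 57.02% in WT. ZNF423 and HYDIN, genes of a zinc finger factor and of a protein of motile cilia, were at most 13.7% covered in any list. In the other direction CMC2, a gene for assembly of cytochrome c oxidase, had 33.5% and 31.0% in DKO, against 73.1% and 73.1% in WT (limma adjusted p = 0.138). CES5A, a carboxylesterase gene, had 28.1% and 20.9% in DKO, against 64.6% and 49.9% in WT. VAT1L had 50.1% and 67.3% in DKO, against 94.8% and 82.2% in WT. ZFHX3, the gene of a zinc finger homeobox factor, had 35.0% and 35.3% in DKO, against 47.5% and 47.5% in WT. RBFOX1, a very long gene of a splicing regulator of neurons and muscle, had 15.9% and 16.05% in DKO, against 22.6% and 20.2% in WT. In none of these 10 genes did the groups overlap, which is what chose them, so this adds no support.

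**Figure D5:**
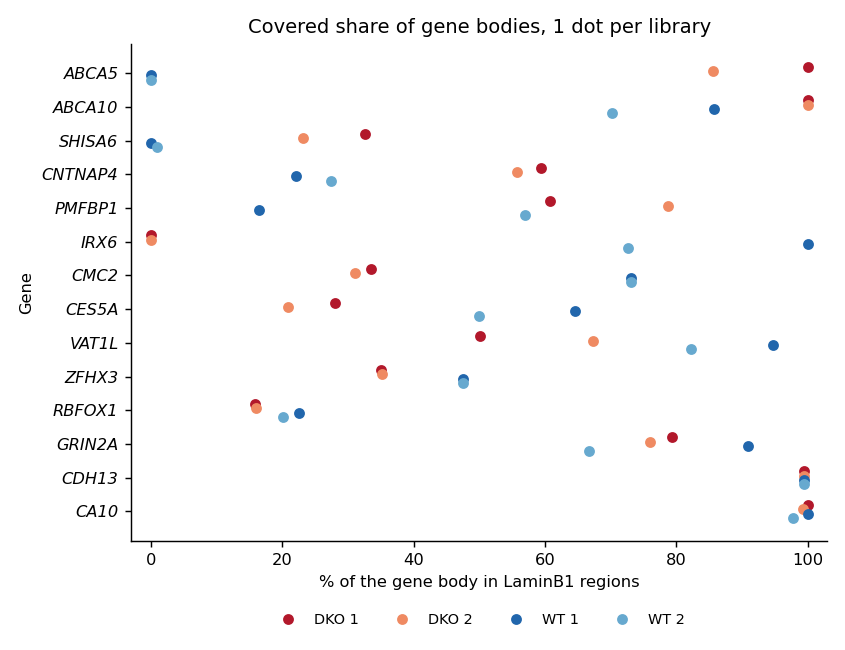
Percent of the gene body inside LaminB1 regions (x axis) for 14 named genes of chromosomes 16 and 17 (y axis), with 1 dot for each library. At ABCA5 the DKO dots are at 85.5% and 100% and the WT dots at 0, at IRX6 the DKO dots are at 0 and the WT dots at 72.6% and 100%, and at CDH13 all 4 lie above 99%.

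Genes in and beside the distal 17q block ranged between full and no coverage. ABCA8, ABCA9 and ABCA6, lipid transporter genes of the same cluster as ABCA5, had 95.5% to 100% in every library. ABCA10 had 100% in both DKO lists, against 85.7% and 70.2% in WT (limma adjusted p = 0.154). All 5 members of this cluster were covered, 4 of them by at least 50% in all lists. MAP2K6, the gene of a kinase that activates p38, and KCNJ16 and KCNJ2 were 100% covered in every library, and SOX9 was at 0. A list of 24 long genes was chosen by name and is not the longest genes of these chromosomes. It leaves out ZFHX3, with 1109 kb, and holds CNTNAP4, with 283 kb. Of the 24, 13 were covered, 3 of them by at least 50% in all lists. This is 54.2%, against 15.3% of all genes, a comparison that is not matched for gene length. Of the 13, 4 had both DKO libraries above both WT libraries and 2 below, against 21.5% and 13.9% of covered genes over the genome. Among 8 cadherin genes of chromosome 16 only CDH13, CDH11 and CDH8 had covered sequence. CDH11 had 12.2% in WT 1 alone and CDH8 2.57% in WT 2 alone. IRX6, an Iroquois homeobox gene, was at 0 in both DKO lists, against 100% and 72.6% in WT (limma adjusted p = 0.181), and the other 2 IRX genes had none. CES1, a carboxylesterase gene beside CES5A, had 0 and 82.97% in DKO, against 82.97% and 29.8% in WT, and overlapped.

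Other gene clusters had no covered sequence in any list. These were the 6 skeletal myosin heavy chain genes and the 10 olfactory receptor genes of 17p, the 62 keratin and keratin-associated genes, the 6 schlafen genes, the 8 CD300 genes, the 5 genes of the growth hormone cluster and the 10 HOXB genes of 17q. On chromosome 16 the 11 metallothionein genes and 5 alpha globin genes had none either. Of 18 chemokine genes, CCL2, CCL7 and CCL11 were 100% covered in DKO 2 and at 0 in the other lists. The calcium channel gamma subunit genes CACNG1, CACNG4 and CACNG5 of 17q had none, while CACNG3 on 16p was 22.6% covered in WT 1 alone. The 19 broadly expressed genes listed had none. Of all protein-coding genes on the 2 chromosomes only 4.99% had covered sequence in any list, so none in a short gene list says little about its members. Genes of a cluster lie side by side and do not count as separate observations. TOP2A, on 17q, was at 0 in all 4 lists, which says nothing about the loss of its protein. The lists report called regions only, so a share of 0 means no call, not an absence of LaminB1.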

How the data were processed

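LaminB1 CUT&RUN libraries were read in pairs of 75 bp, per the labels' protocols. The submitters' processing notes name Bowtie2 2.3.4.3, Picard and the build hg38. For the region caller no name is given in the sources used here. Each of the 4 lists was deposited by the authors for 1 library, and its file name gives the genotype and replicate number of 1 sample title. Regions lie on a 1 kb grid. LaminB1 counts and control library counts per region were deposited by the authors as raw whole numbers, per the file headers. An adjusted p-value and a log2 fold of LaminB1 over control per region were deposited too, and no adjusted value exceeded 0.0500. Where 2 lists of a group held a region with equal edges, the control counts were equal (4 of 4), and between groups they were not (0 of 3), so each group has 1 control library. Which library it was is not given in the sources used here. No IgG sample was analysed here.

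Coverage was computed in 1 kb steps with Python 3.11.15, numpy 2.4.6 and pandas 2.3.3. Genes came from the RefSeq table of GRCh38.p14 (the coordinates of hg38), and chromosomes end at the last gene or region. No genome sequence was used. Because regions were called separately in each library and their edges differ, no table of common features exists for a count test such as edgeR. Instead arcsine square roots of covered shares (100 kb bins at least 5% covered in 1 list, 5 Mb windows at least 1%, genes with any) were fitted over the genome by limma 3.58.1 under R 4.3.3 with a trended variance and a Benjamini-Hochberg adjusted threshold of 0.05. So was log2 LaminB1 reads per covered kb of the 5 Mb windows in which every list had 50 kb or more. The fits were tested on simulated data. Simulated mean shares, before any added change, were held well away from no coverage and full coverage. Every called bin on these chromosomes has no or full coverage in both lists of a group, so the simulation says nothing about such calls. Single values were compared by exact permutation tests. The members and lists were chosen with earlier results of these data known.

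Named genes were, per chromosome and direction, the 5 genes of 20 kb or more whose groups lay furthest apart, at most 1 per Mb, then per arm the 3 longest at least 80% covered on average, the 3 most covered members of each gene list, and TOP2A. SNX29, PIRT, ABCA10, WWOX, CACNG3 and SOX9 were named after their values were seen. One gene that the rule takes is not reported here. The promoters shown are 6 of 8 taken by rule, all inside regions of all lists or of 1 group alone. Alternatives left out each library, blocked on replicate number, or changed regions, filters, scale, bins and windows. Replicate numbers were not found to pair the libraries.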

Additional observations from a re-analysis of the deposited data

How the results depend on the processing

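Covered share was higher in DKO under every alternative run on 17p, and on chromosome 17 and 17q under all but the upper 50% of regions by log2 fold. Under that setting the differences were -0.025 points on chromosome 17, -0.20 on 17q, -1.96 on 16q and -1.52 on chromosome 16, and of single genes HYDIN turned to -2.22 points and VAT1L to 8.35. Chromosome 16, whose difference was near 0, also turned to -0.19 points under the stricter adjusted p of 0.01 and to -0.19 with regions up to 10 kb apart merged. Leaving out 1 library gave -1.61 to 0.24 points on 16p, -0.16 to 1.30 on 16q and -0.74 to 0.75 on chromosome 16. It gave 2.04 to 3.43 on 17p, 1.89 to 2.39 on 17q and 1.94 to 2.69 on chromosome 17. Sequence of 1 group alone was 1.62 to 2.31 Mb (DKO) and 1.47 to 2.46 Mb (WT) on chromosome 16 without 1 library, and 1.61 to 2.03 Mb (DKO) and 0.317 to 0.538 Mb (WT) on chromosome 17. With fewer lists required, these sums grow by construction. In the upper 50% they were 0.296 Mb (DKO) and 0.501 Mb (WT) on chromosome 16 and 0.044 Mb (DKO) and 0.010 Mb (WT) on chromosome 17, and under the stricter adjusted p chromosome 17 had 0.164 Mb of WT. Bins called higher in DKO were 9 to 39 without 1 library, 8 with bins of 50 kb, 1 without the filter, and 0 with bins of 200 kb, untransformed shares or the upper 50%. Bins called lower were 0 to 8 without 1 library, and 1 with merged regions or bins of 50 kb. Windows called higher were 0 to 3 without 1 library, 2 under the stricter adjusted p, 8 with windows of 2 Mb and 0 in the upper 50%. Windows called lower were 1 under the stricter p, the upper 50% and windows of 2 Mb. Genes called higher were 6 to 13 and lower 1 to 11 without 1 library, and 2 were lower with merged regions. Without 1 library, the lone library of a group is assumed to vary like the others. Density calls higher were 0 to 2 without 1 library, 0 under the stricter p and the upper 50%, and 1 without regions under 5 kb. Density calls lower were 0 to 1 without 1 library and 1 in the upper 50%. With replicate number as a block, bin calls went to 0, while 3 windows, 2 density windows and 0 genes were called. The deviations of same-numbered libraries had a correlation of -0.00465 over 2 pairs. The cause of these changes was not tested. A filter-free fit of genes equals the one reported by construction. Depth is known only inside called regions.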
